A study of Sus scrofa with 12 samples.

Results

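Stretches of the pig genome where ATAC-seq reads leaned to one breed hold or adjoin the genes CASR, MFSD1, SLC35F4, FSTL4, KHDRBS2, ATP12A, RNF17 and TTLL11. These are 8 of 19550 protein-coding genes of the Sscrofa11.1 annotation on the placed chromosomes. In ATAC-seq a transposase inserts adapters into accessible DNA, and open chromatin therefore gathers reads. An open region was given to a gene when its midpoint lay in the gene body or within 25 kb of it, which gave 121 of 140081 regions in all, or 178 of the 217213 rows of the deposited table. The muscle was the longissimus dorsi, the long muscle of the back, of 3 Duroc and 3 Luchuan boars aged 180 days. All boars were male and kept under one feeding regime, and the labels give no treatment and no altered gene. The table holds 1 read count per region and breed, pooled over the boars of a breed, so the spread between animals is unknown and no test between breeds was possible. The genes were chosen by the ratio of Luchuan to Duroc reads in and around them, so that ratio is given below as a description.

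The products of the 8 genes do unlike things. CASR is the calcium-sensing receptor, best known from the parathyroid gland, where it lowers the release of parathyroid hormone when blood calcium is high. MFSD1, SLC35F4 and ATP12A are membrane transport proteins, FSTL4 is a secreted protein of the follistatin-like group, KHDRBS2 and RNF17 work on or with RNA, and TTLL11 adds glutamates to tubulin. None of them is known as a defining gene of the muscle fibre. Open chromatin at a promoter usually marks a gene that can be transcribed, whereas open regions farther away can be enhancers, and neither says how much RNA is made.

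Regions held a median of 38 Luchuan and 61 Duroc reads, and each ratio below is on the log2 scale after the median region of the autosomes was set to 0, which multiplied Luchuan reads by 1.48. The middle 50% of autosomal regions lay between -0.33 and 0.33, and that of 17158 autosomal genes between -0.14 and 0.14. Intervals in square brackets are exact (Clopper-Pearson) 95% intervals of the read split. They cover counting error only and leave out the spread between animals. Copies of 1 molecule cannot be recognised here, and where present they make the intervals too narrow even for counting error. A region is called common when the authors detected a peak in both breeds and Luchuan-specific or Duroc-specific when they detected it in 1. That class moves with the ratio by construction: Luchuan-specific regions of 20 to 49 reads had a median log2 ratio of 0.85, Duroc-specific regions of that depth -0.25 and common regions of 200 or more reads -0.02. Fewer nuclei with a region open and less opening in each nucleus cannot be told apart in bulk muscle. Of 14 muscle genes, each had a region within 2 kb, and the strongest region of each held 959 to 3736 reads. Of the 2 blood genes HBB had no region and PTPRC no more than 61 reads in its strongest, and of 4 genes that muscle should lack, PTH and ALB had none, whereas SFTPC reached 181 and INS 34. Of the 2 endothelial genes CDH5 had no region, whereas PECAM1 reached 448 reads in its strongest. Adipocyte genes had regions at 3 of 3, with 45 to 145 reads, and the part of other cell types in the ratios was not tested.

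Summed over its own regions, a gene differed 1.5-fold or more between breeds in 4 of the 8 cases. Among all autosomal genes with a region 7.33% did, 5.09% in the direction of Luchuan and 2.23% in that of Duroc, and among those with only 1 to 3 regions 26.0% did. CASR and SLC35F4 held more reads in Luchuan, and ATP12A and RNF17 held more in Duroc. MFSD1, TTLL11, FSTL4 and KHDRBS2 stayed under 1.5-fold, so the description as shifted did not hold for their summed reads. For FSTL4 and KHDRBS2 it held for stretches inside the gene, and for MFSD1 for a stretch beyond it. Of the 121 regions, 26 had a log2 ratio of 1 or more (21.5%, against 7.53% of all autosomal regions) and 11 had a ratio of -1 or less (9.09%, against 5.09%), and nothing is read from these shares because the ratio chose the genes.

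**Figure D1:**
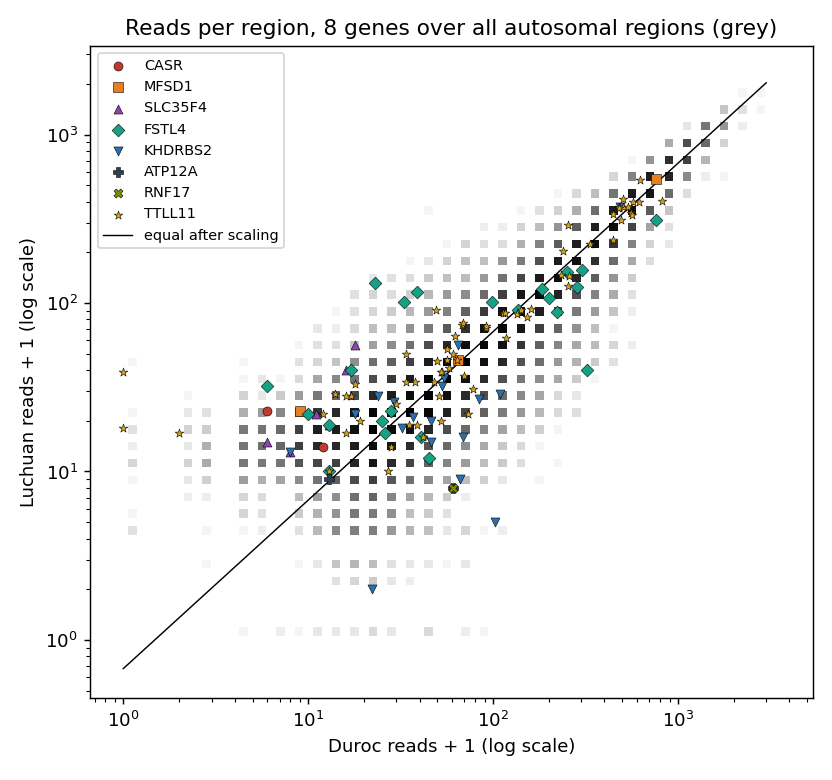
Duroc reads (horizontal) and Luchuan reads (vertical) of each region of the 8 genes, both plus 1 on log scales, over all autosomal regions (grey, darker where more regions fall), with the line of equal reads after scaling. SLC35F4, CASR and several FSTL4 regions lie above the line at 5 to 38 Duroc reads, 12 of the 18 KHDRBS2 regions and the RNF17 region lie below it, and most TTLL11 regions lie close to it.

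Windows of 200 kb were read beside the summed reads of the genes, and in them FSTL4 and KHDRBS2 stood out too. The ratio in and around the genes chose them, so the ranks below describe the windows and are no separate support. Among 7394 autosomal windows with at least 5 regions of 20 or more reads, the middle 50% of window medians lay between -0.15 and 0.19, 96 windows (1.3%) had a median of 1 or more and 34 (0.46%) had one of -1 or less. The window chr13:138200001-138400000 with CASR ranked 4 from the top, at 2.26 with 8 of 8 regions above 0. The window chr2:135600001-135800000 inside FSTL4 ranked 6 from the top, at 1.80 with 7 of 7 above 0. At the other end, chr7:27400001-27600000 inside KHDRBS2 ranked 2 from the bottom, at -1.93 with 0 of 6 above 0, and chr11:1-200000 with ATP12A and the start of RNF17 ranked 3 from the bottom, at -1.76 with 1 of 8 above 0. The MFSD1 window had a median of 0.08 and the 3 TTLL11 windows had 0.19, 0.057 and -0.0049, all within or beside the middle 50%. No window of SLC35F4 held 5 such regions.

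**Figure D2:**
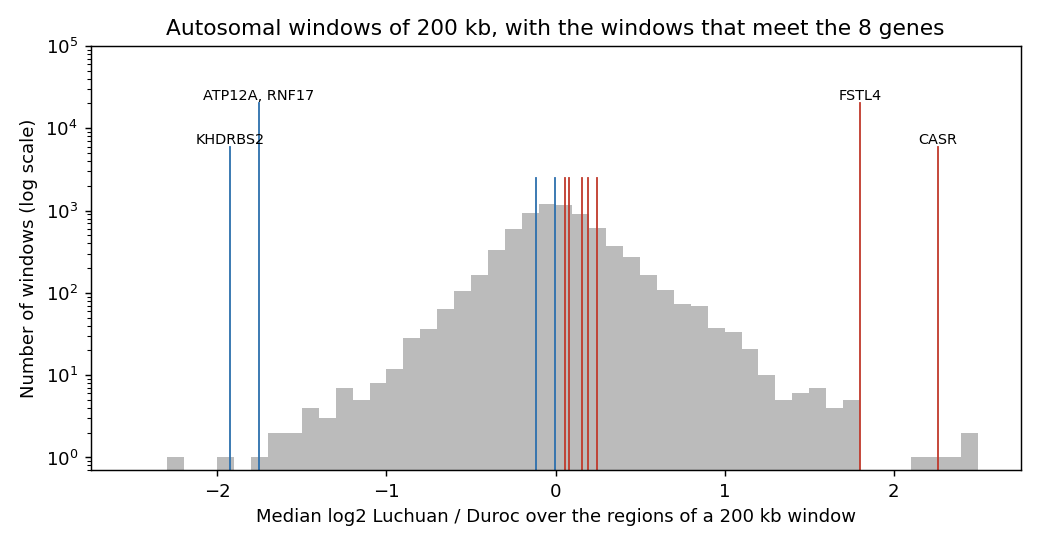
Number of autosomal 200 kb windows (vertical, log scale) by the median log2 Luchuan/Duroc ratio of their regions (horizontal), with a line for each window that meets 1 of the 8 genes. The lines of CASR (2.26), FSTL4 (1.80), KHDRBS2 (-1.93) and ATP12A with RNF17 (-1.76) stand in the tails, and the unlabelled lines are the other windows of FSTL4, KHDRBS2 and RNF17 and those of MFSD1 and TTLL11, between -0.12 and 0.24.

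CASR (gene 100520980, chr13:138279785-138364934, 85.2 kb) had little open chromatin of its own in this muscle. Only 2 regions were given to it, with 35 Luchuan and 16 Duroc reads together, a log2 ratio of 1.69 [0.80, 2.65]. The region in the gene body, 12.5 kb from the lower end, held 13 and 11 reads (0.79 [-0.47, 2.11]). The one 14.5 kb beyond the upper end held 22 and 5 reads (2.50 [1.27, 4.46]) and carried most of the difference, since the ratio without it was 0.81. Lower and upper end here are the ends with the smaller and the larger coordinate, as the annotation used gives no strand.

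The reads that leaned to Luchuan at CASR were mostly outside the gene. A fit of 3 level parts to the ratios within 1000 kb placed the shifted part at chr13:138207208-138448468, which is 241 kb long, begins 72.6 kb below CASR and ends 83.5 kb beyond it. All 9 regions in it were above 0 and all 9 were Luchuan-specific, with 334 Luchuan and 105 Duroc reads together, 2.23 [1.91, 2.57] or 4.71-fold. Its deepest regions lay 72.0 and 70.8 kb below the gene. They held 99 against 20 reads (2.82 [2.17, 3.64]) and 95 against 34 reads (2.02 [1.47, 2.66]). Below this stretch the next region out, 126.9 kb from the gene, held 43 against 69 reads (-0.10 [-0.70, 0.45]), and the first one in held 31 against 6 (2.76 [1.65, 4.49]). The change therefore fell somewhere in the 54.4 kb between them, where no region of 20 or more reads was found. At the upper end there was no such step: the last region in the stretch held 12 against 8 reads (1.10 [-0.26, 2.65]) and the next one 12 against 11 (0.68 [-0.62, 2.01]). The parts on both sides had medians of 0.17 and 0.16.

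Other genes shared the stretch. LOC396867, which lies 53.4 kb below CASR inside it, had a ratio of 2.39 [2.03, 2.76], and LOC396866, whose body ends below it but whose 25 kb flank reaches in, had 2.47 [2.06, 2.91]. The regions of both overlap in part, so these are not separate measurements. CD86, a costimulatory protein of antigen-presenting cells, spans the upper edge and had 24 against 19 reads, 0.90 [-0.03, 1.85]. Farther up, the peptide transporter SLC15A2 leaned the other way on 6 against 17 reads, -0.94 [-2.57, 0.47].

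SLC35F4 (gene 100152395, chr1:186687797-186952292, 264 kb), a member of the SLC35 family of nucleotide sugar transporters and its relatives, leaned to Luchuan along its whole covered length. All of its 6 regions lay in the body, all were Luchuan-specific and all were above 0, and together they held 159 against 66 reads, 1.83 [1.41, 2.27] or 3.56-fold. From the lower end upwards they were found at 85.1, 172, 180, 181.4, 181.8 and 264 kb. The deepest, chr1:186868981-186869334, held 55 against 17 reads (2.20 [1.45, 3.14]) and the next to it 39 against 15 (1.89 [1.05, 2.91]). The other 4 held 18 and 12, 12 and 7, 14 and 5, and 21 and 10 reads, with log2 ratios of 1.11 to 1.89. Each of the 6 intervals included the ratio of the whole gene. Evenness was measured as the dispersion of the reads around the ratio of the gene, which is about 1 when only counting error is present and had a median of 2.63 over 12770 genes with at least 5 regions. For SLC35F4 it was 0.715, against a median of 2.49 over the 985 genes whose regions held a median under 50 reads. No strong common region lies in this gene, and all of its regions were shallow. All 6 were Luchuan-specific, a class that leans to Luchuan by construction, so their evenness is not read as a trait of the gene.

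The ends of the shift at SLC35F4 could not be placed closely. No region of 20 or more reads was found between 125.8 kb below the gene, where the ratio was 0.15 [-0.87, 1.10], and 85.1 kb inside it, a gap of 211 kb. Above the gene the next region lay 485.5 kb from the lower end and held 30 against 42 reads (0.09 [-0.65, 0.79]). The 3-part fit ran on to 608.7 kb and took in 3 more regions beyond the gene, which gave 398 against 350 reads, 0.75 [0.54, 0.96], whereas a partition of all autosomal regions into level segments, added after the values had been seen, ended it at 264.1 kb with 4 regions and 133 against 54 reads, 1.87 [1.40, 2.35]. Where the shift ends above SLC35F4 thus rested on the method.

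MFSD1 (gene 100621077, chr13:98592344-98615061, 22.7 kb), a transporter of the lysosomal membrane, showed no difference at its own open chromatin. Its strongest region, chr13:98591607-98592727, overlaps the lower end of the gene, was common and held 544 against 759 reads, 0.086 [-0.08, 0.25]. Another common region 8.94 kb below the gene held 45 against 64 reads (0.067 [-0.53, 0.63]). The region 21.4 kb beyond the upper end held 22 against 8 reads (1.92 [0.80, 3.40]) and was Luchuan-specific. Summed, MFSD1 had 611 against 831 reads, 0.12 [-0.03, 0.27], and 90.4% of them came from the region at its lower end.

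The shifted part near MFSD1 began with that last region and lay wholly beyond the gene, at chr13:98636385-98960065. All of its 9 regions were above 0, at 0.37 to 2.15 with a median of 1.21, and 8 of them were Luchuan-specific. Summed, they held 472 against 424 reads, only 0.72 [0.53, 0.91]. Its one common region, also its deepest, held 249 against 286 reads and had the lowest ratio of the stretch, 0.37 [0.11, 0.62]. The boundary on the side of the gene lay in the 44.3 kb between the even region at its lower end and the first shifted one, and at the far edge the next region held 16 against 29 reads (-0.25 [-1.27, 0.64]). The stretch was shallow, and less the median of all regions of like class and depth its regions had a median of 0.44, where the CASR stretch had 1.61.

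**Figure D3:**
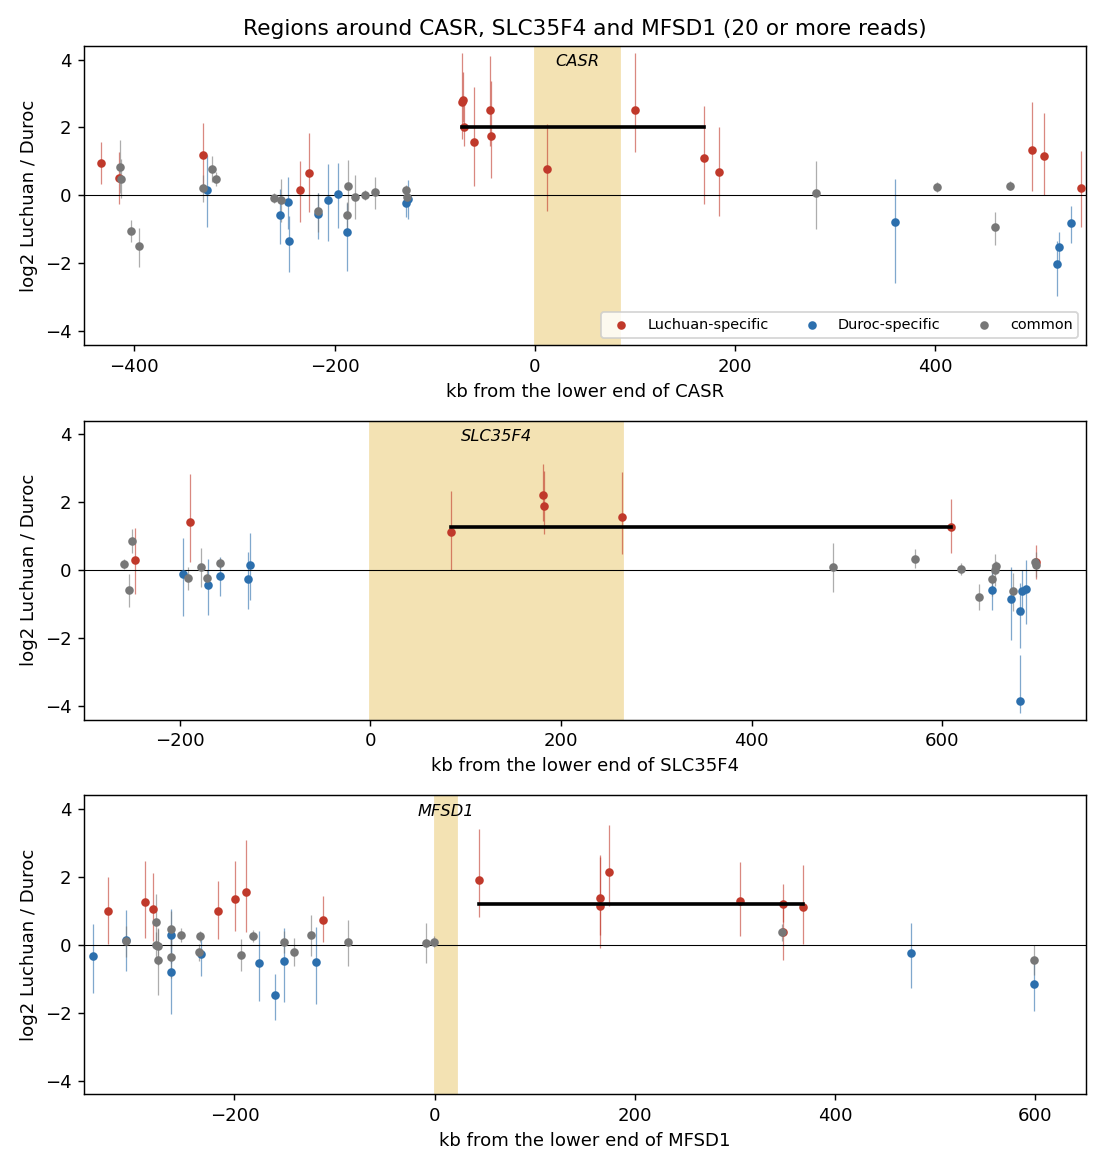
Log2 Luchuan/Duroc ratio (vertical) of each region of 20 or more reads by its distance in kb from the lower end of CASR, SLC35F4 and MFSD1 (horizontal), coloured by peak class, with 95% counting intervals, the gene bodies shaded and a black line at the median of the shifted part of the 3-part fit. The CASR line (2.02) covers the gene and reaches beyond it, the SLC35F4 line (1.27) begins inside it and the MFSD1 line (1.21) lies beyond it.

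ATP12A (gene 100521921, chr11:113901-144765, 30.9 kb), the catalytic subunit of the non-gastric proton and potassium pump, and RNF17 (gene 100738776, chr11:154457-281039, 127 kb), a tudor domain protein of male germ cells, are neighbours at the start of chromosome 11 and rest on the same few reads. Between them they had 2 regions. The one at chr11:143953-144201, in the last part of the ATP12A body and within 25 kb of RNF17, was Duroc-specific and held 7 against 60 reads, -2.37 [-3.91, -1.40]. The other, 0.67 kb below ATP12A, held 8 against 12 reads (0.035 [-1.52, 1.39]). ATP12A therefore stood at 15 against 72 reads, -1.70 [-2.61, -0.88] or 3.24-fold higher in Duroc, but at -0.02 without its deeper region. RNF17 stood at -2.53 on the shared region alone, 5.79-fold higher in Duroc, and none of its 127 kb held a region of its own.

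Most of the reads that leaned to Duroc here were below ATP12A. The partition of all autosomal regions placed the segment at chr11:1831-144201, from the first region of the chromosome to the ATP12A body. Its 8 regions held 259 against 1378 reads, -1.85 [-2.04, -1.65] or 3.60-fold, and 7 of 8 were below 0. The exception is the region just below ATP12A. The 6 regions below it lay 84.5 to 111.8 kb from the gene and held 244 against 1306 reads, so they carried most of the segment. The deepest held 48 against 354 reads (-2.29 [-2.78, -1.88]), and the 2 common regions held 59 against 309 (-1.80 [-2.25, -1.42]) and 58 against 227 (-1.38 [-1.85, -0.98]). The one region of the segment called Luchuan-specific also leaned to Duroc, with 17 against 54 reads (-1.05 [-1.98, -0.29]).

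The regions of the next gene did not share the shift. CENPJ, a centriole protein whose body begins 8.62 kb above RNF17, had 723 against 1172 reads, -0.13 [-0.27, 0.0034]. The first region above the segment, chr11:351965-352963, held 401 against 711 reads, -0.26 [-0.44, -0.08]. No region of 20 or more reads lay between the ATP12A body and that one, so the boundary could fall anywhere from the ATP12A body over RNF17 to that region, which lies in the CENPJ body. Beyond it the ratios did not return to 0: 206 regions of the next segment summed to -0.25 [-0.28, -0.23], and from 250 to 500 kb above ATP12A 32 of 35 regions were below 0. The 3-part fit, which allows a single shifted part, took this milder stretch in place of the strong one (median -0.28 over 98 regions for ATP12A and -0.30 over 104 for RNF17).

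FSTL4 (gene 100525565, chr2:135486885-136096939, 610 kb), a secreted follistatin-like protein related to SPARC, had the least even ratio of the 4 among the 8 genes that have at least 5 regions. Its 23 regions held 1831 against 3054 reads, and their sum was close to even at -0.17 [-0.26, -0.09]. Along the gene, however, 8 regions below the midpoint of the body had a median of 1.97 and all were above 0, while 15 above the midpoint had a median of -0.34 and 12 were below 0. The dispersion was 27.4, above 99.9% of the genes with at least 5 regions, and 13 of the 23 counting intervals left out the ratio of the gene.

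The lower stretch of FSTL4 leaned to Luchuan. Between 74 and 386 kb from the lower end its 9 regions held 486 against 173 reads, 2.06 [1.80, 2.31] or 4.16-fold, and all were above 0. At chr2:135646104-135646604, 159.5 kb in, 130 against 22 reads gave the highest ratio of the gene, 3.08 [2.47, 3.85]. The region at 74.0 kb held 101 against 32 reads (2.19 [1.64, 2.85]) and the one at 275.3 kb held 115 against 38 (2.14 [1.62, 2.73]). These 3 were the deepest of the stretch, and their intervals all stood well above 1. The stretch was not uniform, since the regions at 196.0 and 236.7 kb held 22 against 27 (0.28 [-0.61, 1.14]) and 9 against 12 reads (0.19 [-1.28, 1.52]). Of the 9 regions 8 were Luchuan-specific and none was common.

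The upper stretch leaned mildly to Duroc, with 1 region far beyond the rest. Between 432 and 559 kb all 11 regions were below 0, and they held 1209 against 2734 reads, -0.61 [-0.71, -0.51]. The region with the most reads of the gene, at 548.1 kb, was common and held 309 against 756 reads, -0.72 [-0.92, -0.53]. The region chr2:136009553-136010209, at 523.0 kb, was Duroc-specific and held 39 against 322 reads, -2.45 [-3.00, -2.00]. The next region below it, at 517.6 kb, was common and held 87 against 220 reads (-0.76 [-1.15, -0.41]). The common regions at 432.4, 433.0 and 433.6 kb, the first above the Luchuan-leaning stretch, stood at -0.03, -0.02 and -0.38. In the partition of the ratios the change between the stretches thus fell between 386.2 and 432.1 kb. With ratios less the median of like class and depth, the partition ended the lower stretch at 275.5 kb with 8 regions, and the next segment began at 386.0 kb. The place of the change rested on the method, and both places lie inside the gene.

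A further change fell at the upper end of FSTL4. The last region in the body, at 569.6 kb, was common and held 101 against 98 reads (0.61 [0.19, 1.02]), after 16 against 25 at 559.8 kb (-0.05 [-1.08, 0.88]). From there to 777.2 kb, at chr2:136056313-136264127, all 13 regions were above 0 with a median of 1.34 and 1385 against 793 reads, 1.37, and this is the part that the 3-part fit chose. Within it, 10 regions from 670.8 to 777.2 kb, beyond the gene, held 1048 against 468 reads, 1.73 [1.57, 1.89]. Common regions were among those 10, unlike at CASR and SLC35F4. The next region out held 481 against 635 reads (0.17 [-0.01, 0.34]), and 56 regions from 811.7 kb on summed to -0.02 [-0.05, 0.02]. Below the gene 67 regions summed to 0.0046 [-0.03, 0.04].

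The genes on both sides of FSTL4 did not share its pattern. HSPA4, a heat shock protein 95.8 kb below, had 1926 against 2762 reads, 0.045 [-0.04, 0.13]. C2H5orf15, 190 kb above, had 1253 against 1914 reads, -0.05 [-0.15, 0.06]. None of the 18 protein-coding genes within 500 kb of FSTL4 differed 1.5-fold.

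KHDRBS2 (gene 100153184, chr7:27348614-27895572, 547 kb), an RNA-binding protein of the STAR family that regulates splicing chiefly in the brain, leaned to Duroc in one short block. Its 18 regions held 731 against 1333 reads, -0.30 [-0.43, -0.17], and the dispersion was 9.62, above 95.9% of genes. The block, chr7:27462012-27510187, is 48.2 kb long and lies 113 to 162 kb into the gene. Its 6 regions were all Duroc-specific and all below 0, with 82 against 446 reads, -1.88 [-2.24, -1.54] or 3.68-fold.

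In that block the last region, at 161.4 kb, held 4 against 101 reads, -3.79 [-6.00, -2.69], the lowest ratio of the gene. The region just before it, at 160.8 kb, held 28 against 108 (-1.34 [-2.04, -0.77]), and the intervals of both did not overlap. The last region is the lowest of the block, and unrecognised copies of a molecule would make both intervals too narrow. Whether the difference varied within the block was not tested. The others held 1 against 21 (-2.89 [-9.20, -1.19]), 26 against 83 (-1.07 [-1.80, -0.46]), 8 against 65 (-2.31 [-3.73, -1.39]) and 15 against 68 reads (-1.54 [-2.53, -0.79]). All 6 intervals stayed below 0. Together with the outer regions this put both edges inside the gene in the main fit, but the edges moved under other settings, as given below. On the lower side a region at 11.7 kb held 21 against 17 reads (0.85 [-0.12, 1.88]). On the upper side the next region of 20 or more reads was at the upper end itself.

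That region at the upper end of KHDRBS2, 0.123 kb from it, was common and the strongest of the gene. It held 373 against 486 reads, 0.18 [-0.01, 0.38], which is 41.6% of the reads of the gene, and showed no lean to Duroc. Without it the gene stood at -0.68, which is past 1.5-fold. The lower end had 6 shallow regions in the first 11.7 kb of the body with ratios of -1.05 to 0.85, and 4 regions below the gene had ratios of -0.16 to 0.41. Only 4 protein-coding genes lie within 500 kb, none differed 1.5-fold, and GCLC, an enzyme of glutathione synthesis 95.1 kb below, stood at 0.15 [0.04, 0.25].

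**Figure D4:**
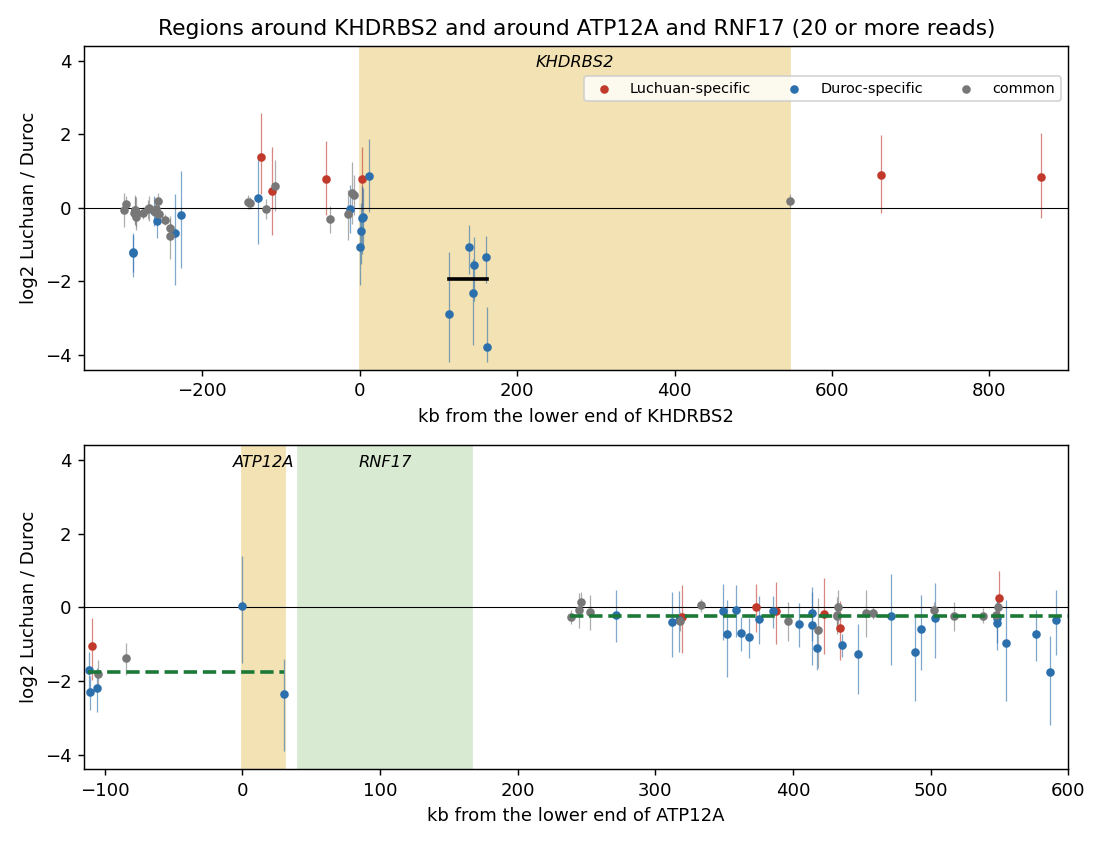
Log2 Luchuan/Duroc ratio (vertical) of each region of 20 or more reads by its distance in kb from the lower end of KHDRBS2 (top) and ATP12A (bottom, with RNF17 in green), coloured by peak class, with 95% counting intervals. The black line is the shifted block of KHDRBS2 (median -1.93), and the dashed lines are segments of the partition of all regions, at -1.76 up to the ATP12A body and -0.24 beyond RNF17.

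TTLL11 (gene 100152823, chr1:261896303-262204751, 308 kb), a ligase that lengthens glutamate chains on tubulin, was the most richly covered of the 8 and close to even as a whole. Its 67 regions, 34 of them common, held 8299 against 11765 reads, 0.062 [0.02, 0.10]. The dispersion of 6.23 was above 88.4% of genes, and 26 of 67 intervals left out the ratio of the gene. Its region with the most reads, at 268.4 kb, held 404 against 814 reads (-0.44 [-0.62, -0.27]). Among regions of 50 or more reads the highest ratio was 1.46 [0.95, 2.01] on 90 against 48 reads at 187.2 kb, and the lowest was -1.17 [-1.99, -0.49] on 21 against 72 reads at 279.1 kb.

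The ratio of TTLL11 changed inside the gene, by a small step. From 0.951 kb below the lower end to 225.9 kb in, 33 regions of 20 or more reads held 3529 against 4098 reads, 0.35 [0.28, 0.41], and 30 were above 0. From 236.6 kb on, 142 regions over the rest of the gene and beyond summed to -0.16 [-0.19, -0.13]. The regions beside this edge, 86 against 115 reads (0.15 [-0.27, 0.56]) and 33 against 47 (0.068 [-0.63, 0.73]), were alike. Among the common regions of the lower stretch, 535 against 624 reads at 215.0 kb gave 0.34 [0.17, 0.51] and 288 against 252 at 184.3 kb gave 0.76 [0.51, 1.01]. The lean to Luchuan on this side was thus found in these common regions as well as in Luchuan-specific ones. They were picked from the 17 common regions of the stretch. All 34 common regions of TTLL11 together stood at 0.034.

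At 3 nearby places TTLL11 had almost no Duroc reads. At chr1:262007617-262007861, 111.4 kb in, there were 38 Luchuan and 0 Duroc reads. That is 18.7-fold higher in Luchuan when 3 reads are taken as the most that a count of 0 allows in the pooled library. The Luchuan count is taken as exact there, so the fold is not a lower limit. At 110.8 kb there were 17 and 0 reads, 8.39-fold higher when read in the same way, and at 120.1 kb 16 and 1, a log2 ratio of 3.65 [1.88, 9.96]. A count of 0 in Duroc was found at 33 of 136574 autosomal regions, and at 12 of these Luchuan held 15 or more reads. The regions on both sides, 27 against 16 reads at 58.3 kb (1.29 [0.38, 2.31]) and 27 against 15 at 123.4 kb (1.37 [0.45, 2.43]), had Duroc reads. The near absence of Duroc reads was thus not shared by the next regions out. At the upper end of TTLL11 a common region 0.476 kb inside the gene held 363 against 480 reads (0.16 [-0.04, 0.36]).

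**Figure D5:**
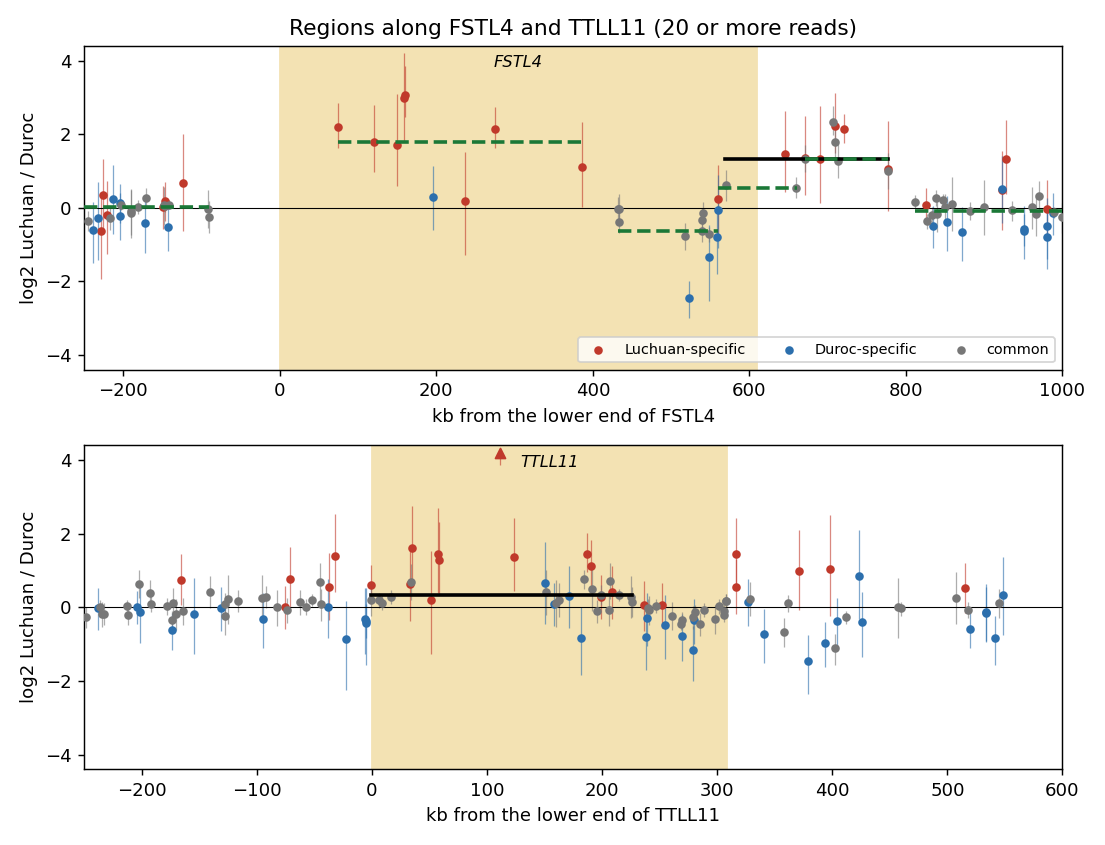
Log2 Luchuan/Duroc ratio (vertical) of each region of 20 or more reads along FSTL4 and TTLL11 by its distance in kb from the lower end (horizontal), coloured by peak class, with 95% counting intervals; the triangle is a TTLL11 region beyond the axis (38 against 0 reads), black lines are the shifted parts of the 3-part fit and dashed lines the segments of the partition. FSTL4 steps from a median of 1.80 to -0.62 and back above 0, and TTLL11 from 0.34 to values around 0 at about 226 kb.

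Taking the 8 genes side by side, the ratio was even along 1 gene and uneven along 3 of the 4 genes with at least 5 regions. The even gene, SLC35F4, had only shallow Luchuan-specific regions. That class leans to Luchuan by construction, so this evenness is not read as a trait of the gene. Uneven here means a dispersion above the upper quartile over all genes, 4.19. CASR, MFSD1, ATP12A and RNF17 had 1 to 3 regions, too few for that measure. A boundary lay inside FSTL4 and TTLL11, inside KHDRBS2 in the main fit only, and below CASR, whereas above CASR no step between neighbouring regions was seen. At MFSD1, on both sides of SLC35F4, below TTLL11, above the KHDRBS2 block and on chromosome 11 the gap between regions that holds the boundary also holds or adjoins a gene end. A change at that end cannot be told apart from one near it. Subtracting from each region the median ratio of its class and depth left the segments of FSTL4 (with some edges moved), of KHDRBS2 and at the start of chromosome 11. The bodies of CASR, SLC35F4 and MFSD1 then fell into long segments close to 0, whose summed reads gave 0.046, -0.013 and 0.024. Beside CASR the 6 regions below the gene still formed a segment of their own, with a median of 1.64 after the subtraction. Their summed reads, without the subtraction, gave 2.39 [2.03, 2.76]. The TTLL11 stretch then began farther below the gene. Of all autosomal regions, 1.78% lay in segments of at least 5 regions with a median of 1 or more in either direction (175 segments higher in Luchuan and 96 in Duroc), and 0.446% did after that subtraction.

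The rule of 25 kb left some shifted regions out. The outermost region counted was the Duroc-leaning one 22.2 kb below TTLL11, with 9 against 26 reads (-0.87), followed by the one 21.4 kb beyond MFSD1 (1.92). The nearest not counted were 31.9 kb beyond and 32.2 kb below TTLL11, with 24 against 60 (-0.72) and 24 against 13 reads (1.40), and 35.6 kb beyond FSTL4, with 23 against 12 (1.45).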

How the data were processed

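ATAC-seq libraries of 3 Duroc and 3 Luchuan boars were analysed, and the RNA-seq libraries were not analysed here. Per the labels, read filtering by the authors used Trimmomatic (version 0.36), alignment to the Sus scrofa 11.1 assembly used Bowtie2 and peak detection used MACS2. Removal of duplicates, the shift of reads for the transposase and the pooling of replicates are not given in the sources used here. For each interval the authors deposited a raw read count of each breed. They also deposited a log2 fold change, an average log2 signal and a p-value from their own comparison of the breeds, which were not used. Since no replicate is named in these columns, they were read as pooled. No value column belonged to another sample (0 found).

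Common intervals that overlapped or adjoined were joined into 1 region, represented by the longest of them, which gave 140081 regions. Starts are taken to count from 0 (the shortest interval is then 150 bases long) and are printed from 1. Regions held 13746000 Luchuan and 20759900 Duroc reads in all. A region's log2 ratio had 1 read added to each breed, a gene's ratio used summed reads, and the autosomal median (-0.57) was subtracted. The 3-part fit used least absolute deviations over regions of at least 20 reads within 1000 kb, with at least 5 regions in the shifted part. The partition used weighted least squares with ratios limited to 2 and a penalty of 12 per segment. Genes were matched by symbol to the RefSeq annotation of Sscrofa11.1 (8 of 8), which gives no strand or exons, so promoters, exons, introns and untranslated regions were not separated. Sequences were not analysed here.

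The 8 genes, the gene lists and the tests were chosen with earlier results of these data known, and the partition after the ratios near FSTL4 had been seen. Named were the 8 genes, in each the region with the most reads and those with the highest and lowest ratio among regions of at least 50 reads, the regions beside each edge, genes within 500 kb, and the highest and lowest of each list of relatives. Other regions were named after their values were seen. A gene of the lists is not reported here by name. Scripts were tested on simulated data. SciPy 1.17.1, numba 0.67.0, pandas 2.3.3, NumPy 2.4.6 and Matplotlib 3.10.9 ran under Python 3.11.15.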

Additional observations from a re-analysis of the deposited data

How the results depend on the processing

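No paired analysis was possible because the count columns carry no replicate, and for the same reason no boar could be left out. Alternatives changed the scaling, the merging of intervals, the depth minimum, the flank, the peak class, the summary of a gene and the fit of segments. Of 44 comparisons of the main counts with an alternative, 39 stayed within 1.5 times and 5 moved. This compares the size of a count, not the genes in it. With at least 50 reads 5 genes again had a shifted part, but ATP12A and RNF17 stood in place of CASR and MFSD1. Among values of single genes 103 stayed, 25 moved and 1 reversed. In these comparisons a gene was counted as uneven when its dispersion was above the median of all genes in that setting, not the upper quartile. The 4 genes at 1.5-fold or more became 0 with regions of at least 100 reads and 0 with common regions only, since CASR, SLC35F4, ATP12A and RNF17 have no such region. The 10 neighbouring genes at 1.5-fold or more became 3 with common regions only. The 4 relatives became 2 with common regions only and 8 with the gene body alone. The segment around CASR did not stand with at least 50 reads, where the fitted part had a median of -0.040 over 47 regions, because only 2 of its 9 regions are that deep. Nor did that of MFSD1 with at least 50 reads (median 0.26 over 31 regions), or that of SLC35F4 with a binomial likelihood or at least 10 regions (0.12 over 53 regions in both). For TTLL11 the fitted part with at least 50 reads ran from chr1:261406977 to chr1:262133027. It was 726 kb long, with a median of 0.13 over 91 regions. The KHDRBS2 block kept a median below -1, but its edges moved. With at least 50 reads it ran from chr7:27486729 to chr7:28269814, past the upper end of the gene (-1.26 over 8 regions). With at least 10 regions it began at chr7:27349077, just inside the lower end of the gene (-1.06 over 12 regions). Gene ratios ranged from 0.81 to 2.02 for CASR, 1.63 to 1.87 for SLC35F4, -2.53 to -0.02 for ATP12A, -2.73 to -1.70 for RNF17, -0.40 to -0.02 for FSTL4, -0.68 to 0.18 for KHDRBS2, -0.08 to 0.46 for MFSD1 and -0.14 to 0.15 for TTLL11. The last 3 changed sign, KHDRBS2 with common regions only and the others with clean reads set equal. With a binomial likelihood the 3-part fit placed the chromosome 11 shift at a median of -1.59 over 6 regions, near the partition. The few reads of CASR, ATP12A and RNF17 limit what their ratios can show.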

Other observations

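Relatives of the 8 genes elsewhere in the genome were read in the same way. Of 52 listed genes 49 had a region, 1 was 1.5-fold or more higher in Luchuan and 3 in Duroc, where 5.09% and 2.23% of all autosomal genes were, so 4 of 49 lies near the 7.33% of all genes. Their median was -0.06, against -0.0086 over all autosomal genes. The one higher in Luchuan was KHDRBS3, a splicing regulator of the same family as KHDRBS2, with 705 against 583 reads, 0.84 [0.68, 1.0], and 14 of its 15 regions were above 0. KHDRBS1 and QKI of that family stood at -0.07 [-0.16, 0.03] and -0.14 [-0.20, -0.08]. Those higher in Duroc included FSTL5, with 71 against 219 reads (-1.06 [-1.47, -0.67]), and the matrix protein SPARC, with 1198 against 2786 (-0.65 [-0.75, -0.55]). Of the 4 regions of FSTL5, 2 were above 0 and their median was -0.07, so its regions did not share the lean of the sum. Of the 12 regions of SPARC, 3 were above 0. FST, the follistatin that binds activin and myostatin, stood at 0.48 [0.22, 0.74] with all 5 of its regions above 0, under 1.5-fold. GLMP, the partner of MFSD1 in the lysosome, stood at -0.09 [-0.19, 0.02].

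Of 79 protein-coding genes with a region within 500 kb of 1 of the 8 genes, 5 were 1.5-fold or more higher in Luchuan and 5 in Duroc, where 5.09% and 2.23% of all autosomal genes were, and the median was -0.01. In this count ATP12A and RNF17 are neighbours of each other. Those higher in Luchuan lay beside CASR (LOC396866, LOC396867 and CD86) or TTLL11, where LOC110256219, which lies within the TTLL11 body and shares its regions, stood at 0.93 [0.60, 1.27] and LOC100152475 at 0.70 [-0.05, 1.45] on 34 against 31 reads. Those higher in Duroc besides ATP12A and RNF17 were SLC15A2, C13H7orf73 (-1.19 [-1.54, -0.86]) and GJA3 (-0.96 [-1.40, -0.53]).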
